A study of Mus musculus with 19 samples.

Results

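CpG sites that lie away from protein-coding genes were followed through the liver methylome of Mat1a knockout (KO) mice. A site was called distal when it lay neither inside a protein-coding gene nor within 2 kb of either end of one, by RefSeq coordinates on chromosomes 1 to 19 and X (build GRCm38, which shares its primary coordinates with mm10). Of the 8525 CpG sites listed in the authors' 3 deposited tables, 2237 were distal, 5835 lay inside a coding gene and 447 within 2 kb of one. The remaining 6 were on the Y chromosome or an unplaced contig and were left out.

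The study measured CpG methylation by reduced-representation bisulfite sequencing, which reads DNA fragments released by restriction enzymes, here MspI and TaqαI. Liver came from 19 mice aged 10 months: 8 wild-type (WT) mice with no treatment, 6 Mat1a KO mice on placebo and 5 Mat1a KO mice supplemented with S-adenosylmethionine (SAMe), with treatment of 8 weeks by the series title. WT mice did not receive placebo, so each comparison with WT changes genotype and handling together, and these cannot be told apart. How the KO allele was made, the sex of the mice and whether any were littermates are not given in the sources used here.

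Mat1a encodes the methionine adenosyltransferase of adult liver, which makes SAMe from methionine, and SAMe is the methyl donor of DNA methyltransferases. DNA between coding genes holds enhancers, non-coding RNA genes, pseudogenes and repeats. Most of its CpG sites are methylated in normal tissue, while active enhancers tend to have lower methylation. An enhancer need not act on the gene nearest to it, so the gene named beside a site below marks its position only.

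Each table gave, per site, a methylation difference in percentage points with a p-value and a q-value, and held only sites with an absolute difference above 20. Differences were read as KO minus WT and, between the KO groups, SAMe minus placebo. The tables do not state this order, and with the opposite order every direction below turns round together. These tables give neither levels nor coverage nor values per mouse, so depth is unknown and no value carries an SD. Absence from a table means that a site missed the thresholds or had no coverage. Intervals are 95% intervals over sites (exact Clopper-Pearson for shares, order statistics for medians) and cover counting error only, since neighbouring sites share fragments and mice. No test was run between distal and other sites. The labelled tissue could not be checked against marker genes, as no expression was measured, and in DNA of whole liver a change within cells and a change in the mix of cells cannot be told apart.

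Promoter windows of long non-coding RNA (lncRNA) genes show the sequence around some of these sites. RefSeq's table for GRCm38.p6 gives 300 bases per gene, from 250 before the annotated start to 50 after it. In 32851 such windows, the 102 listed sites that fell in one all stood on a CG, as did all 16 distal ones, so positions in the tables count from 1 on this build. The 16 distal sites lay in windows of 14 lncRNA genes. The windows of 4 of these genes are printed to show a pair of large losses, a pair split between the WT tables, a site that differed between the KO groups and a single recurrent loss. Each runs 5′ to 3′ on the gene's strand, with the listed CpG in capitals.
Gm35135 (chr12:52480560-52480859, minus strand): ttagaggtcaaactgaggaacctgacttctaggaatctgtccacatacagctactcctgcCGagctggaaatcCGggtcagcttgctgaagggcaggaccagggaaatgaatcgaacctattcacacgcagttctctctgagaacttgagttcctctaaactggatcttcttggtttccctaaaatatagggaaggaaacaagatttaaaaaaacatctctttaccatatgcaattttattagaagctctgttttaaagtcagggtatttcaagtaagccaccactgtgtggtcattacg
E330017L17Rik (chr4:129905976-129906275, plus strand): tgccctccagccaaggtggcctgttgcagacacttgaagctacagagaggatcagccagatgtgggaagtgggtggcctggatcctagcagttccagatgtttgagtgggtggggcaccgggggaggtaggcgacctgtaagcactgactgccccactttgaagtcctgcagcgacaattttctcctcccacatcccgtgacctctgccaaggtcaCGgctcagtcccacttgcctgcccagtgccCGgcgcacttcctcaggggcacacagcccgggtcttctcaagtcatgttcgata
Gm32539 (chr7:141924053-141924352, plus strand): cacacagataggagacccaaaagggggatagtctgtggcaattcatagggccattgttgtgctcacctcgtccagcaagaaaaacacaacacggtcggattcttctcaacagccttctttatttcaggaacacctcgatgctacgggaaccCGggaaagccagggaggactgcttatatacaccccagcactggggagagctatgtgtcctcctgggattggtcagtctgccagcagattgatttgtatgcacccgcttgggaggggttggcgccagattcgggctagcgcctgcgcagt
Gm34026 (chr8:106399795-106400094, plus strand): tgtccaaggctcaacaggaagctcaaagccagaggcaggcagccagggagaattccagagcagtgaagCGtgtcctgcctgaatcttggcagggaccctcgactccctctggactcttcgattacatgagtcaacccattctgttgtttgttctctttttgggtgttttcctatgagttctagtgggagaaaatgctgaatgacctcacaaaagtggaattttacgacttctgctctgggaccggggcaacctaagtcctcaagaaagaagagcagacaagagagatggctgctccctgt

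Gm35135, an lncRNA 23.0 kb from Arhgap5, held the larger losses among these windows. Its sites at −177 and −190 relative to the annotated start stood at −36.9 and −39.7 for KO placebo and at −43.4 and −45.1 for KO SAMe in the authors' deposited tables. In the E330017L17Rik window a site at −4 from the start was listed with a difference of −26.7 for KO placebo, and another at −34 with −32.1 for KO SAMe in the authors' deposited tables. The site at −99 from the start of Gm32539, near Tollip, a regulator of Toll-like receptor signalling, had a difference of −24.5 for KO SAMe and −20.8 for SAMe against placebo in the authors' deposited tables. Gm34026 had a site at −182 from its start with a difference of −28.6 for KO placebo and −25.6 for KO SAMe in the authors' deposited tables. All 16 sites of the 14 windows were lower in each WT comparison that listed them. Over all listed sites 99.4% (KO placebo) and 99% (KO SAMe) were lower.

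The motifs CCGG and TCGA, the cut sites of MspI and TaqαI, read the same on both strands and do not overlap each other. CCGG occurred in 12 of the 14 windows with a distal site, TCGA in 8, and at least 1 of them in all 14. Over the 11575 promoter windows of non-coding genes the shares were 35.5%, 18.5% and 45.6%. Of the 16 distal sites, 7 were the CpG of a cut site itself. The 14 windows held 1 to 11 CpG sites with a median of 6.5, against a median of 4 over all non-coding windows. The assay reads fragments cut at these motifs, and the 11575 windows were taken whether covered or not. A window with a listed site is therefore bound to be richer in them, and these values do not set distal sites apart.

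In placebo-treated KO liver, distal sites were almost uniformly lower than in WT. Of the 1710 distal sites in the authors' deposited table (25.4% of its sites), 1692 were lower (98.9%, interval 98.3 to 99.4) and 18 higher, against 99.4% lower over all listed sites. The median of the lower distal sites was −24.6 (interval −24.8 to −24.2) in the authors' deposited table, and that of sites inside a coding gene −26.5 (−26.8 to −26.3). Differences of at least 40 percentage points made up 104 distal sites (6.08%, interval 4.996 to 7.32), against 9.27% over all listed sites and 10.6% (9.74 to 11.5) inside coding genes, in the authors' deposited table. At 60 points or more there were 12 distal sites (0.702%, against 0.595% over all listed sites).

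SAMe-treated KO liver showed the same direction against WT. The authors' deposited table listed 1258 distal sites (23.4% of its sites), 1240 of them lower (98.6%, interval 97.7 to 99.1) and 18 higher, against 99% lower over all listed sites. The median of lower distal sites was −25.4 (interval −25.8 to −24.9), and that of sites inside coding genes −27.2 (−27.5 to −27.0), in the authors' deposited table. At least 40 points were reached by 88 distal sites (6.995%, interval 5.65 to 8.55), against 10.8% over all listed sites and 12.3% inside coding genes, in the authors' deposited table. At least 60 points were reached by 10 (0.795%, against 0.669% over all listed sites).

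On the 2 sides of the 2 kb boundary that defines distal sites, medians differed by a few points. From 2 to 3 kb outside a coding gene, the median of lower sites was −26.2 for KO placebo and −26.5 for KO SAMe in the authors' deposited tables. From 1 to 2 kb outside a gene, where sites no longer count as distal, it was −27.6 and −29.1 in the authors' deposited tables. The distal sites lay at a median of 22.9 kb from the nearest coding gene, with quartiles of 8.81 and 66.5 kb and a maximum of 1805 kb. Where the gene's strand was known, 868 sites were upstream of it and 796 downstream.

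**Figure D1:**
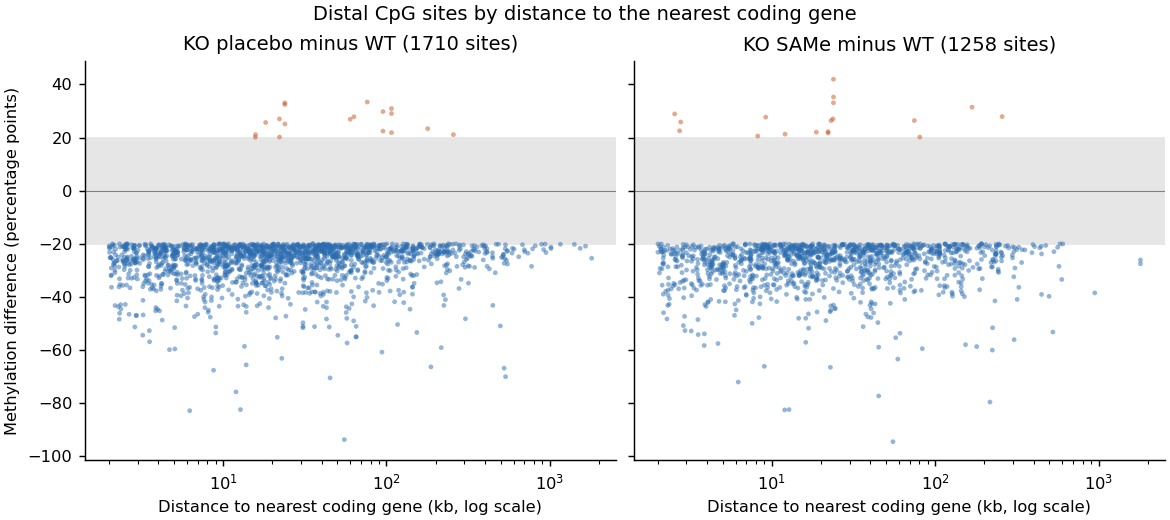
Methylation difference in percentage points (vertical axis) of each distal site against its distance to the nearest coding gene in kb (horizontal axis, log scale), for KO placebo minus WT (1710 sites) and KO SAMe minus WT (1258 sites); blue points are lower and orange points higher, and the grey band holds no sites because the tables list only absolute differences above 20. Losses fill both panels at all distances, and 18 gains stand above the band in each.

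Losses were largest in the nearest distance class in WT vs KO placebo and recurred most often there. From 2 to 10 kb the median of lower distal sites in the authors' deposited table of WT vs KO placebo was −25.6 (interval −26.1 to −24.95), from 10 to 50 kb −24.6, from 50 to 200 kb −23.9, from 200 to 500 kb −23.6 and beyond 500 kb −22.7 (−24.1 to −21.8). In WT vs KO SAMe the first 3 classes stood at −26.4, −25.4 and −23.7, followed by −23.8 from 200 to 500 kb, in the authors' deposited table. Beyond 500 kb the SAMe table listed 10 distal sites, with a median of −26.8 and a wide interval (−38.5 to −20.1).

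Of the distal sites listed for KO placebo, 785 were also listed for KO SAMe. That is 45.9% of the placebo list (interval 43.5 to 48.3), against 55.2% over all listed sites and 58.4% (56.9 to 59.8) inside coding genes. It is 62.4% of the SAMe list (59.7 to 65.1), against 68.9% over all listed sites. Of the 785 sites 779 were lower in both and 6 higher in both. The comparisons share the WT mice, so the count is not evidence from separate animals.

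Recurrence was then set beside that of sites inside genes within classes of size. Between 20 and 25 points, 29.7% (interval 26.8 to 32.8) of the distal sites for KO placebo were also listed for KO SAMe, against 39.2% (37.0 to 41.4) inside coding genes. Between 25 and 30 points the shares were 52.0% (47.0 to 57.0) and 62.3% (59.4 to 65.1). From 30 to 40 points they were 76.5% and 77.1%, and from 40 to 60 points 83.7% and 82.6%, with intervals that overlapped.

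Recurrence was highest close to genes and lowest far from them. It was 54.4% (interval 49.98 to 58.8) at 2 to 10 kb, 47.6% at 10 to 50 kb, 39.0% at 50 to 200 kb, 27.9% at 200 to 500 kb and 11.1% (3.11 to 26.1) beyond 500 kb, where 36 placebo sites were listed. The order held within size classes. For sites between 20 and 25 points it ran from 36.1% at 2 to 10 kb to 18.3% at 200 to 500 kb and 7.41% beyond. For sites of 25 points or more it ran from 69.9% to 48.5% and 22.2%, the last over 9 sites. Coverage at these sites is unknown, and its part in the order was not tested.

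**Figure D2:**
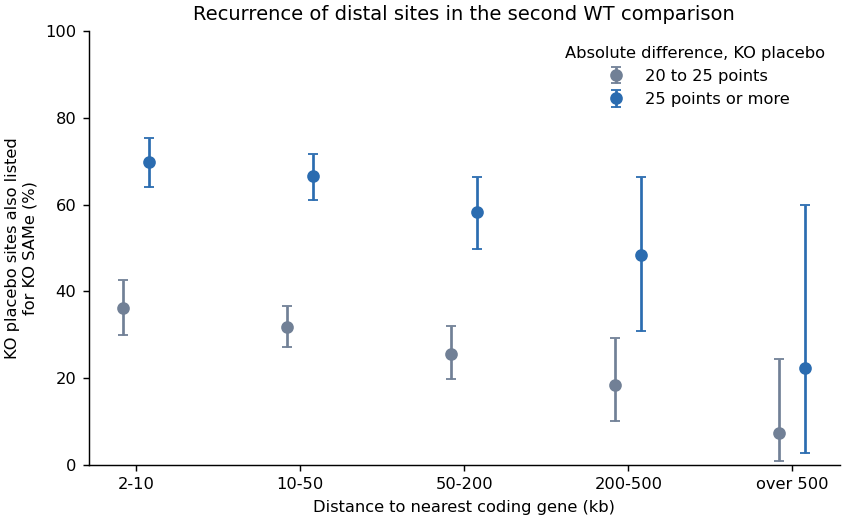
Share of distal sites listed in WT vs KO placebo that were also listed in WT vs KO SAMe (vertical axis, %) by distance to the nearest coding gene (horizontal axis, kb), for sites of 20 to 25 points (grey) and of 25 points or more (blue) in WT vs KO placebo; points are shares and bars exact 95% intervals over sites. The share falls from 36.1% to 7.41% in the grey class and from 69.9% to 22.2% in the blue class.

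The largest distal losses were carried by single CpG sites. A site 55.2 kb downstream of Peli2, an E3 ubiquitin ligase of innate immune signalling, stood at −93.7 for KO placebo and −94.5 for KO SAMe in the authors' deposited tables (chromosome 14, position 48336747). A site 6.24 kb from Kif13b, a kinesin motor, was at −82.8 and −72.0 in the same order in the authors' deposited tables. The site near Grid1, a glutamate receptor subunit, was at −82.4 in both authors' deposited tables. Dusp6, the phosphatase that switches off ERK, had a site 11.99 kb upstream at −75.8 and −82.5 in the authors' deposited tables. These 4 sites had q-values listed as 0 in both WT comparisons.

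Sites near Alkal2, a ligand of the ALK receptor, and Hdac9, a class IIa histone deacetylase, were also low in both KO groups. The authors' deposited tables gave −70.5 for KO placebo and −77.3 for KO SAMe near Alkal2, and −63.1 and −66.5 near Hdac9. Near Stxbp6, at a distance of 525 kb, the values were −66.8 and −53.2 in the authors' deposited tables. Wdr75, a gene of ribosome production, had a site 9.01 kb upstream at −53.6 and −66.1 in the authors' deposited tables. The sites near Pcmtd1 (−70.0) and Gm46390 (−65.6) were listed for KO placebo and not for KO SAMe in the authors' deposited tables. Neither site was listed between the KO groups, and whether the SAMe group had coverage there is unknown.

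Chromosome 14, which carries Mat1a, held 5 of the 12 distal sites of at least 60 points in WT vs KO placebo and 3 of the 10 in WT vs KO SAMe. Of its 70 distal sites in the placebo comparison, 13 (18.6%) reached 40 points in the authors' deposited table, while the other chromosomes ranged from 1.77% to 9.35%. In the SAMe comparison 9 of 43 (20.9%) did, with a range of 3.13% to 11.7% elsewhere. Within 10 Mb of Mat1a there were 17 distal sites, and 6 of the 14 listed for KO placebo reached 40 points in the authors' deposited table. They included the Grid1 and Peli2 sites, a site 36.3 kb from Ghitm at −51.2 in both WT comparisons, and 3 sites near the exocyst gene Exoc5 at −41.9 to −48.3 for KO placebo in the authors' deposited tables. A site near Ptpn20, on the same side of Mat1a as Grid1 and Ghitm, was 33.4 higher for KO placebo in the authors' deposited table. All KO mice carry the altered Mat1a allele, so linked DNA on chromosome 14 and the loss of Mat1a cannot be told apart, and whether its sequence differs between the groups was not tested.

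**Figure D3:**
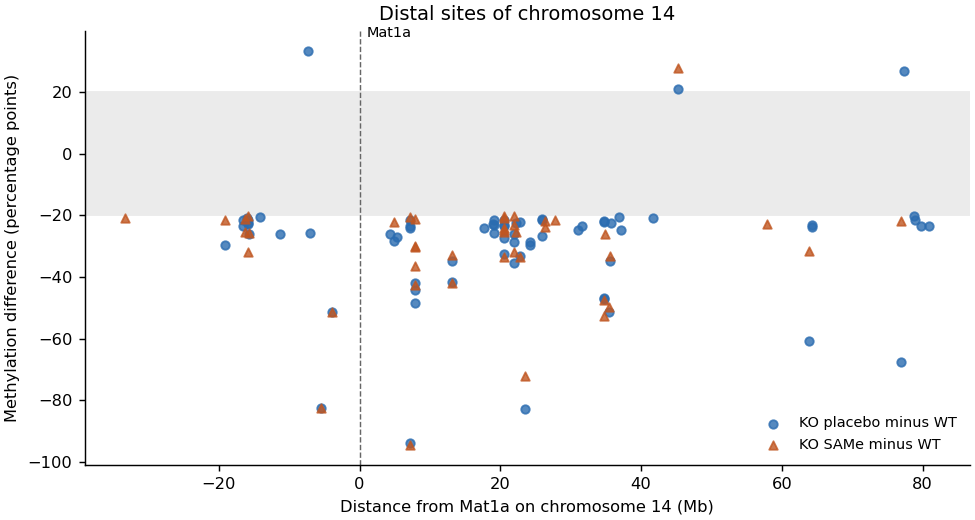
Methylation difference in percentage points (vertical axis) of the distal sites of chromosome 14 against their distance from the start of Mat1a in Mb (horizontal axis), for KO placebo minus WT (blue circles, 70 sites) and KO SAMe minus WT (orange triangles, 43 sites); the dashed line marks Mat1a and the grey band the range the tables leave out. The lowest point is the site near Peli2, at −93.7 and −94.5.

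Chromosome 12 held 3 further sites of at least 60 points in each WT comparison, in a stretch from 30 to 46 Mb that was singled out after its values were seen. The stretch had 11 distal sites. Large losses near Alkal2, Twistnb, Hdac9 and Stxbp6 stood there beside a run of gains near Sypl. Twistnb, a subunit of RNA polymerase I, had a site 216 kb downstream at −59.1 for KO placebo and −79.6 for KO SAMe in the authors' deposited tables.

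Gains were rare. Their median was 26.3 for KO placebo and 26.4 for KO SAMe, close in size to the median losses, in the authors' deposited tables. The WT tables together listed 30 distal gains in 21 regions, of which 6 sites were higher in both. Over all listed sites there were 43 gains for KO placebo, 53 for KO SAMe and 12 in both. The distal part of these was 18, 18 and 6, while distal sites made up 25.4% (KO placebo) and 23.4% (KO SAMe) of the listed sites. The run near Sypl lay 23.7 kb upstream of that gene, inside the lncRNA gene 4933406C10Rik, with the pseudogene Gm19056 covering 3 of its 4 sites. These 3 sites were at 25.1, 33.0 and 32.4 for KO placebo and at 35.2, 41.9 and 33.1 for KO SAMe in the authors' deposited tables. The fourth, on the other strand, was listed at 27.0 for KO SAMe alone. No site of this run was listed between the KO groups.

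Near Rassf3, a Ras association gene, 2 neighbouring sites gained 27.0 and 20.2 for KO placebo and 21.7 and 22.2 for KO SAMe in the authors' deposited tables. Diaph3, a formin that builds actin filaments, had a site 257 kb downstream at 21.1 and 27.9 in the authors' deposited tables. Other gains were listed in 1 WT comparison only. For KO placebo the largest of these were near Ptpn20 (33.4), the Rn18s-rs5 pseudogene (30.9) and Rab39b (29.8) in the authors' deposited table. For KO SAMe they were near Cdh11 (31.4), Aym1 (28.9) and the sites of Tafa5 and Eid2 (both 26.4) in the authors' deposited table.

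Joining distal sites at most 1 kb apart gave 1751 regions, of which 1407 (80.4%) held a single site. The other 344 held 830 sites, and 12 regions had 5 sites or more. For KO placebo the range over the sites of a region had a median of 4.75 points over 254 regions, and 253 of these had 1 sign. Of all distal sites listed for KO placebo 98.9% were lower, so nearly all regions would have 1 sign from that share alone. The lower ones had quartiles of −29.3 and −21.9, and the table leaves out smaller losses, which also keeps ranges small. Whether sites of a region were more alike than sites of different regions was not tested. Sites of a region share fragments, so they are not separate observations.

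The run with most sites lay 30.7 kb from Nfib, a nuclear factor I gene, inside the lncRNA gene Gm11266. It held 10 sites in 286 bp of chromosome 4 (82537419 to 82537704). All 10 were lower for KO placebo, from −51.6 to −24.2 with a mean of −37.6 over sites, in the authors' deposited table. The 3 plus-strand sites were also listed for KO SAMe, at −38.6, −32.0 and −25.7, close to their placebo values of −38.4, −30.6 and −24.2 in the authors' deposited tables. The 7 minus-strand sites, including 3 near −50 (−51.6, −49.7 and −51.1), were in the placebo table alone, and none was listed between the KO groups. Whether the SAMe group had coverage at these 7 sites is unknown, so their absence is not read as a difference between the KO groups.

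The run near Blcap had larger listed losses for KO SAMe at most sites, but none of its sites was listed between the KO groups. It held 8 sites in 257 bp, 15.9 kb downstream of the gene, with means of −33.4 over 7 sites for KO placebo and −38.3 over 8 sites for KO SAMe in the authors' deposited tables. The last site of the Blcap run went the other way, at −34.8 for KO placebo and −23.9 for KO SAMe in the authors' deposited tables. The fourth run by size lay 33.0 kb from Wnt7b, a Wnt ligand, with 7 sites, 6 of which were listed for KO placebo, from −36.6 to −20.7 in the authors' deposited table. Near Onecut1, a transcription factor of hepatocyte and bile duct development, 6 sites in 322 bp stood inside the lncRNA gene Gm33562. Their means were −34.4 for KO placebo (5 sites) and −34.2 for KO SAMe (6 sites) in the authors' deposited tables. Another 7 runs had 5 sites each, and the first of them in chromosome order lay near BC107364. Its 5 sites within 37 bp averaged −24.7 for KO placebo and 4 averaged −31.0 for KO SAMe in the authors' deposited tables.

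The only region of mixed sign lay 2.30 to 3.17 kb from Rn18s-rs5, a pseudogene of 18S ribosomal RNA, on chromosome 17. Its first 3 sites, within 5 bases of each other, were higher for KO placebo at 30.9, 21.8 and 29.0 in the authors' deposited table. A further site 663 bp from the first was lower for both KO groups, at −23.2 and −35.8 in the authors' deposited tables. Beside it 4 sites were lower for KO SAMe only, from −24.2 to −23.0 in the authors' deposited table. The last site was listed between the KO groups alone, 22.8 higher with SAMe in the authors' deposited table. Ribosomal RNA genes exist in many near-identical copies, so the copy that the reads came from is uncertain.

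**Figure D4:**
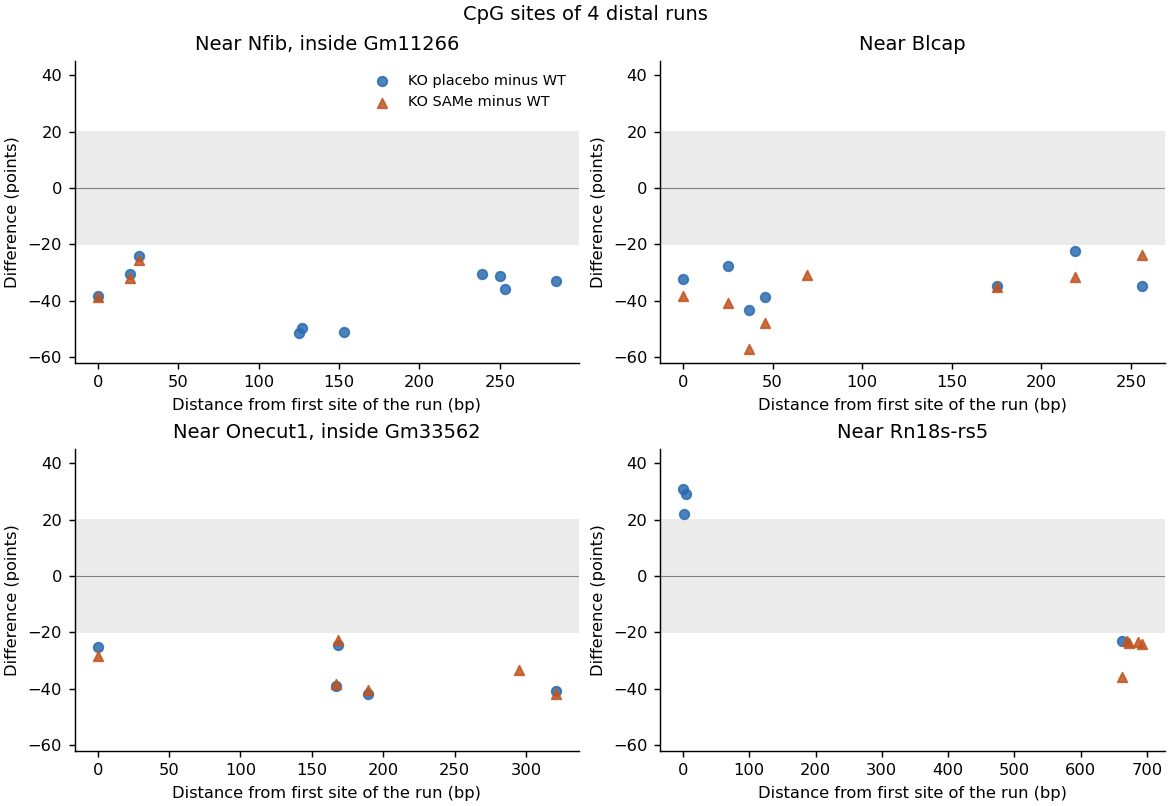
Methylation difference in percentage points (vertical axis) at each listed site of 4 distal runs against the distance from the first site of the run in bp (horizontal axis), for KO placebo minus WT (blue circles) and KO SAMe minus WT (orange triangles); the grey band is the range the tables leave out. The Nfib run has 10 placebo and 3 SAMe points, the Onecut1 points of both groups nearly coincide, and the Rn18s-rs5 run starts with 3 gains.

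A CpG reads the same on both strands and can be listed for each. That happened at 3 distal CpG sites. The one near Onecut1 was at −39.0 on the plus strand and −24.6 on the minus strand for KO placebo, and at −38.5 and −22.9 for KO SAMe, in the authors' deposited tables. The one near BC107364 was at −22.7 and −35.7 for KO placebo, and the one near Zmiz1 at −22.8 and −21.6, in the authors' deposited table. Both strands were lower at each.

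Non-coding genes held part of the distal sites. Of the 2237, 524 (23.4%, interval 21.7 to 25.2) lay inside a non-coding gene, 477 of them in an lncRNA gene. A further 1568 (70.1%) were over 2 kb from any annotated gene. Sites inside lncRNA genes had a median of −24.2 among the lower ones for KO placebo and those over 2 kb from any gene −24.7, with overlapping intervals, in the authors' deposited table.

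Of 12697 lncRNA genes, 437 (3.44%) had a distal site inside or within 2 kb. The list of widely expressed or liver lncRNAs had 3 of 36 matched genes with a site. Pvt1, the lncRNA beside Myc, had 5 sites spread over 70351 bp, at −38.3, −29.8 and −21.3 for KO placebo and from −36.5 to −20.1 over 4 sites for KO SAMe in the authors' deposited tables. Trp53cor1, a p53-induced lncRNA, had 1 site at −22.3 and −24.1, and Morrbid, an lncRNA of myeloid cell survival, 1 at −20.2 for KO placebo in the authors' deposited tables. Among 10 matched imprinted non-coding RNAs only Mirg had sites, 2 of them, at −21.2 and −21.9 for KO placebo in the authors' deposited table. Gm11476 and Gm35117 each held 5 sites, all lower in the WT comparisons that listed them, as were nearly all listed sites.

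MicroRNA genes were rarely close to a distal site. Of 1228, 8 (0.651%) had a site within 2 kb, and 2 of the 56 liver and growth microRNAs did. The 1228 include any gene inside a coding gene, where no site within 2 kb can be distal, so the rule partly sets this share. Mature sequences are printed for 6 of the 8 genes to identify the RNAs beside which methylation was lower. They come from RefSeq, build GRCm38.p6, with the seed (bases 2 to 8), which pairs with target RNAs, in capitals. None of the 16 mature sequences of the 8 genes shared all bases of the seed, but miR-322-5p and miR-503-5p differed in it only at base 8.
mmu-let-7i-5p (chr10:122985698-122985719, minus strand): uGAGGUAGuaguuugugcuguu
mmu-miR-34a-5p (chr4:150068473-150068494, plus strand): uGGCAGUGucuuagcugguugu
mmu-miR-322-5p (chrX:53054306-53054327, minus strand): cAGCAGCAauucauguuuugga
mmu-miR-503-5p (chrX:53054027-53054049, minus strand): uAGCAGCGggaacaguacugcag
mmu-miR-351-5p (chrX:53053315-53053338, minus strand): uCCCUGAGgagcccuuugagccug
mmu-miR-760-3p (chr3:122293615-122293634, minus strand): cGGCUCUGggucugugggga

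A site 1045 bp from Mirlet7i, a let-7 gene, was at −23.9 for KO SAMe in the authors' deposited table. Mir34a, a p53 target that restrains the cell cycle, had a site 1046 bp away at −21.3 for KO SAMe in the authors' deposited table. Mir351, Mir503 and Mir322, which form a cluster on the X chromosome, shared 2 sites beside Mir351. They were at −32.1 for KO placebo (1 site) and at −21.0 and −28.7 for KO SAMe in the authors' deposited tables. Mir760 had 2 sites at −29.5 and −37.5 for KO placebo and −25.3 and −33.7 for KO SAMe in the authors' deposited tables. Mir6516 had 1 site, at −29.0 and −21.9, and Mir3072 shared the Mirg pair of sites.

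Distal losses lay near several coding genes of hepatocyte identity. Of 27 genes in that list, 12 (44.4%) were the nearest coding gene within 100 kb of a distal site, against 5.62% of all 21631 coding genes. For KO placebo it was 10 genes, against 4.49%, for KO SAMe 7, against 3.33%, and between the KO groups 2 (Cebpb and Tbx3), against 0.254%. The list was written with earlier results of these data known, and its genes stand in wider gaps. The DNA nearest to each had a median length of 49.1 kb, against 14.9 kb over all coding genes, and coding genes with at least that much had a site in 12.5% of cases. Per Mb of such DNA the list had 16.3 distal sites, against 2.38 over all coding genes and 1.88 over those with gaps at least that wide. This density counts neighbouring sites singly though they share fragments. Since 3 genes held 19 of the 32 sites, the density mostly describes a few genes. All 26 placebo and 20 SAMe sites of the list were lower, as were 99.4% and 99% of all listed sites. The list's medians were −29.0 and −32.6, against −24.6 and −25.4 for all lower distal sites, in the authors' deposited tables.

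Onecut1, Cebpb and Ppara held 19 of the list's 32 sites. The 8 sites of Onecut1 lay 7.61 to 14.5 kb upstream, from −42.0 to −24.6 for KO placebo and from −41.9 to −22.9 for KO SAMe in the authors' deposited tables. Cebpb, a transcription factor of liver metabolism and regeneration, had 3 sites 5.2 kb downstream at −33.8, −39.4 and −23.2 for KO placebo and −32.0, −36.6 and −21.5 for KO SAMe in the authors' deposited tables. A pair 65.2 kb downstream of Cebpb stood at −55.0 and −55.1 for KO placebo and −34.4 and −40.9 for KO SAMe in the authors' deposited tables. Ppara, the fatty acid receptor that drives fat oxidation, had 5 sites 10.4 to 61.3 kb upstream, down to −42.6 for KO placebo and −38.5 for KO SAMe in the authors' deposited tables. The other 9 genes shared 13 sites. Alb, the serum albumin gene, had a site 29.1 kb upstream at −23.7 and −30.3, and Nr5a2, a nuclear receptor of bile acid synthesis, had 2 at −29.0 and −21.4 for KO placebo in the authors' deposited tables.

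The insulin and growth factor list had 3 of 27 genes with a distal site (11.1%, against 5.62% of all coding genes). The DNA nearest to its genes had a median length of 30.5 kb, again above the 14.9 kb of all coding genes. Irs2, the insulin receptor substrate prominent in liver, had 5 sites inside the lncRNA gene 3930402G23Rik, 56.7 to 59.1 kb downstream, from −45.9 to −23.6 for KO placebo in the authors' deposited table. For KO SAMe 3 of these were listed, at −32.8, −28.2 and −20.6, and a sixth site, 4.49 kb downstream, at −21.9 in the authors' deposited table. Foxo1, the forkhead factor that insulin restrains, had 3 sites 43.4 to 43.5 kb downstream at −37.7, −33.2 and −27.0 for KO placebo and −23.7, −27.0 and −21.4 for KO SAMe in the authors' deposited tables. Igfbp1 had 1 site at −31.7 for KO SAMe in the authors' deposited table.

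The other 5 lists had 0 to 2 genes with a distal site each, beside 5.62% of all coding genes. Methionine, betaine and folate enzymes had 2 of 27 (7.41%). Bhmt, which remethylates homocysteine with betaine, had 2 sites 4.3 and 4.4 kb downstream at −21.0 and −22.9 for KO placebo and −30.5 and −22.3 for KO SAMe, and Mat2b, the regulatory subunit of the other methionine adenosyltransferase, 1 at −22.9 for KO placebo in the authors' deposited tables. Lipid and sterol regulators had 2 of 27 (7.41%), Pparg at −21.6 for KO SAMe and Scd1 at −20.4 for SAMe against placebo, in the authors' deposited tables. Among lists of other liver cells, stellate cell and fibrosis genes had 2 of 26 (7.69%), cholangiocyte and progenitor markers 2 of 16 (12.5%), and immune and endothelial markers 0 of 27. The DNA nearest to the stellate and cholangiocyte genes had median lengths of 54.9 and 49.7 kb. Coding genes with at least 49.1 kb had a site in 12.5% of cases, so neither list stood above genes with gaps that wide. Hes1, the Notch target of the cholangiocyte list, had 5 sites, down to −41.6 for KO placebo and −38.1 for KO SAMe in the authors' deposited tables.

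Most of the distal sites that differed between the KO groups were higher with SAMe. The authors' deposited table for KO placebo vs KO SAMe listed 230 sites, of which 93 were distal (40.4%, interval 34.0 to 47.1), against 25.4% (24.4 to 26.5) and 23.4% (22.2 to 24.5) in the WT tables. Of the 93, 66 were higher with SAMe (71.0%, against 70% over all listed sites) and 27 lower, from −29.2 to 45.7. At 2 to 10 kb from a coding gene, 3 of 22 were lower with SAMe, and at 10 to 50 kb 9 of 18 were. It was 10 of 34 at 50 to 200 kb, 4 of 16 at 200 to 500 kb and 1 of 3 beyond, with no steady order. The largest differences were near Tgds (45.7), Rbm26 (29.1), Xkr9 (29.0), Gm7429 (28.7), Lmcd1 (28.4) and Lrrc4c (27.4), all higher with SAMe, in the authors' deposited table. Sites near Rgs8 (−29.2), A230072I06Rik (−26.2), Cd209c (−25.9), Slc22a12 (−24.5), Cyp2c29 (−23.8) and Gpatch8 (−23.7) were lower with SAMe in the authors' deposited table.

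Neither WT table held 54 of these 93 sites, against 128 of all 230 sites of the KO comparison. Another 20 were in the WT vs KO placebo table, against 55 of the 230. In the WT vs KO SAMe table there were 9, against 21, and in both 10, against 26. At these 39 sites both differences from WT are known, since the difference of 1 KO group from WT equals that of the other plus or minus the difference between them. At the 10 distal sites in all tables this held within 1e-06 points. The SAMe group was nearer to WT at 26 sites and the placebo group at 13. All 20 sites of the placebo table fell on the first side and all 9 of the SAMe table on the second. The tables share groups and thresholds, which fixes much of this split, so it is a description.

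At 6 of the 10 sites listed in all tables the SAMe group was nearer to WT, and at 4 the placebo group was. Tgds, a sugar nucleotide dehydratase, had a site 8.73 kb downstream at −67.6 for KO placebo and −21.9 for KO SAMe in the authors' deposited tables. Near Xkr9 the values were −66.3 and −37.3, near Rbm26 −60.8 and −31.7, and at the site 65.2 kb downstream of Cebpb −55.0 and −34.4 in the authors' deposited tables. A pair of sites 5.05 kb downstream of Exoc3l4 stood at −51.6 and −59.6 for KO placebo and −28.3 and −37.6 for KO SAMe in the authors' deposited tables. The reverse held near Twistnb (−59.1 and −79.6), Kif2a, a microtubule motor (−39.3 and −60.0), Gm38706 (−37.9 and −58.9) and Cd209c (−20.1 and −46.0), in the authors' deposited tables.

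For the 20 sites in the placebo and KO tables, addition left SAMe differences from WT of −12.7 (Vps45) to 6.80. For the 9 sites in the SAMe and KO tables it left placebo differences from WT of −19.4 (Fam155a) to −1.73; in each set the group not listed against WT was the nearer one. At Cacna2d3, a calcium channel subunit, −25.99 for KO placebo and 25.99 for SAMe against placebo in the authors' deposited tables left 0. At Nrp1, a receptor for semaphorins, −22.6 and 24.3 in the authors' deposited tables left 1.73, and at Hes1 −24.7 and 20.4 left −4.31. In the other set, −24.7 for KO SAMe and −22.5 for SAMe against placebo near Gpat3 in the authors' deposited tables left −2.20 for KO placebo. Near Omt2a −23.9 and −21.4 left −2.47, and near Efnb2 −36.4 and −23.5 left −12.9, in the authors' deposited tables. Near Lrrc4c, 1535 kb from the gene, −21.7 and 27.4 in the authors' deposited tables left 5.71. The third gain beside Rn18s-rs5, at 29.0 for KO placebo, was 22.2 points lower with SAMe (−22.2 in the authors' deposited table), leaving 6.80.

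**Figure D5:**
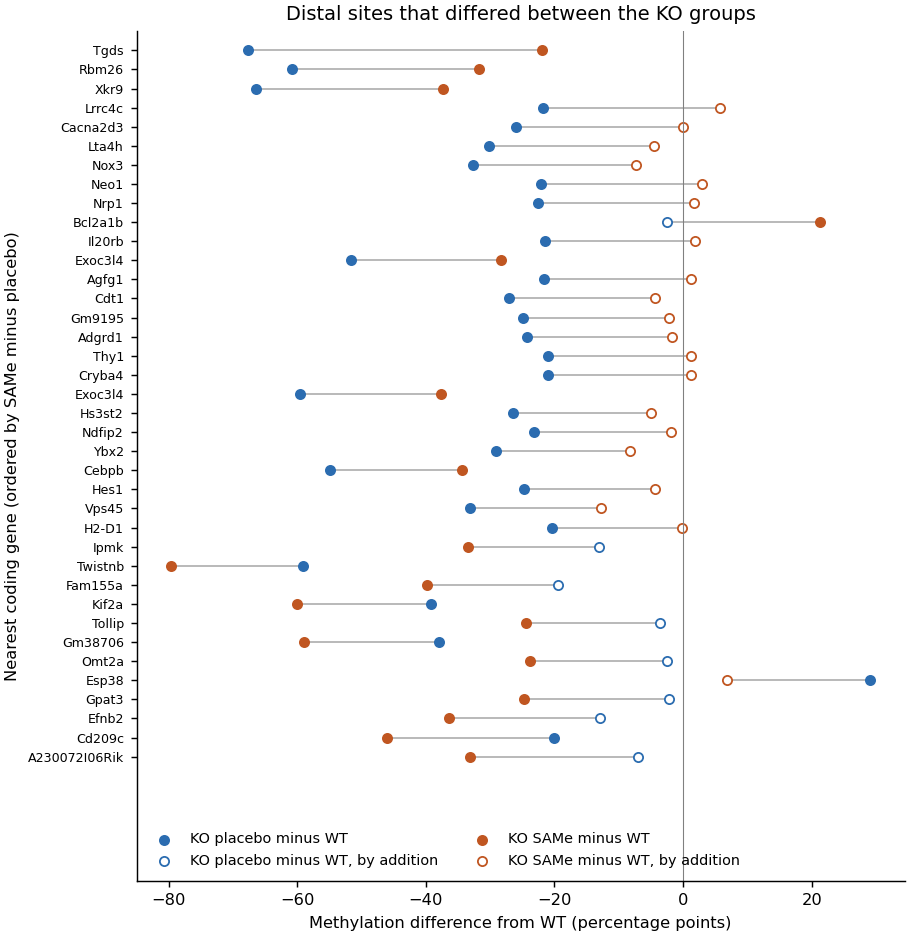
Methylation difference from WT in percentage points (horizontal axis) of KO placebo (blue) and KO SAMe (orange) at distal sites listed between the KO groups and in at least 1 WT table, chromosome 18 left out; each row is a site named by its nearest coding gene, filled points are listed values and open points come from addition. The site near Tgds, at −67.6 and −21.9, has the longest line among those drawn.

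The sites most remote from coding genes were ordinary in size. A pair 1805 kb upstream of Cdh20, a cadherin, was listed for KO SAMe at −26.1 and −27.5, and its first site at −25.4 for KO placebo, in the authors' deposited tables. A site 1655 kb from Pcdh17, a protocadherin, was at −20.9 for KO placebo in the authors' deposited table.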

How the data were processed

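CpG methylation was measured in liver DNA of 19 mice. Per the submitters' processing notes, which give neither order nor settings, the authors used CASAVA 1.8.2, Trim Galore, Bismark, methylKit and mm10. The p-value and q-value of each site were deposited by the authors, and the test behind them is not given in the sources used here. Differences in percentage points, kept as scores, were taken as deposited. The tables held no depth and no value per mouse, so no model was fitted and no comparison was tested here.

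The 3 tables were united on chromosome, start and strand and set against 21631 coding genes of the RefSeq table (GRCm38.p6) with Python 3.11.15, pandas 2.3.3 and scipy 1.17.1. The distance and region steps were tested on simulated data. Lists and members were chosen with earlier results of these data known. Named sites were the 10 largest losses and gains per WT comparison (1 per region), the 6 and 6 largest between KO groups, sites in all tables, the 6 runs with most sites (a tie at 5 sites broken by chromosome order), the 5 most remote sites, the non-coding genes with most sites and up to 3 members per list. Sites of chromosome 18 and some named genes are counted but not reported here singly. Comparisons that go beyond this rule were added after the values were seen. Alternatives were other flanks (0 and 10 kb), gene tables, thresholds, joining distances and chromosomes.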

Additional observations from a re-analysis of the deposited data

Results flagged for a closer look

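At 10 distal sites both KO groups were listed against WT and the KO groups were also listed as different from each other by the authors, so the size of the loss differed between placebo and SAMe by the authors' own test. In the authors' deposited table SAMe minus placebo was 45.7 near Tgds, 29.1 near Rbm26, 29.0 near Xkr9, 23.3 and 21.99 at the pair near Exoc3l4 and 20.6 near Cebpb. It was −25.9 near Cd209c, −21.0 near Gm38706, −20.8 near Kif2a and −20.5 near Twistnb in the authors' deposited table. The spread between mice at these sites is not known.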

How the results depend on the processing

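Of 67 values recomputed for 10 results under 9 alternatives, 54 stayed within 1.5 times (counts) or inside the interval. With a flank of 10 kb the medians were −24.2 (KO placebo) and −24.8 (KO SAMe) and recurrence was 42.3%, and with 0 kb the first median was −24.8 (−24.7886). The cause of these shifts was not tested. Keeping differences of at least 25 points left 785, 658 and 18 distal sites, medians of −29.9 and −30.8, 16.7% lower between the KO groups, recurrence of 51.7% and 823 regions. With q at most 0.001 the KO comparison kept 46 sites. Leaving out chromosome 14 or predicted genes, joining at 200 bp or 5 kb, or taking 1 mean per region moved none of the results they were applied to. No paired analysis was possible because the tables hold no value per mouse, and for the same reason no mouse could be left out. Depth limits cannot be given, since coverage is unknown.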
